A study of Bos taurus with 12 samples.

Results

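Small RNA of spermatozoa from 4 Holstein Friesian bulls was compared between 12 and 16 months of age, the peri-pubertal and post-pubertal stages of the study. The comparison used 8 of the 12 libraries of the series, 1 library for each bull at each age, and each bull was set against himself. Each library came from 5 straws of frozen semen that were thawed and combined, so a library stands for 1 bull at 1 age and not for single ejaculates or cells, and no bull received a treatment. Reads were counted on 5481 reference sequences, and 4615 of them had at least 1 count in the 8 libraries. These comprised 796 miRNA hairpins (every name in bta-mir or bta-let), 279 mature miRNAs (bta-miR), 60 tRNAs, whose names give the amino acid and the anticodon, and 3480 transcripts known only by an Ensembl identifier. The 1477 sequences with a mean of at least 50 raw counts over both ages, called well counted here, are described in detail: 230 hairpins, 8 mature miRNAs, 45 tRNAs and 1194 Ensembl transcripts. The hairpins just inside that minimum were bta-mir-125a, bta-let-7c and bta-mir-221, at up to 50.3 counts, and those just outside were bta-mir-154a, bta-mir-2316 and bta-mir-2284f, at 48.9 to 49.9.

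A miRNA is cut from a folded hairpin precursor and lowers the translation or stability of messenger RNAs that pair with its seed. A tRNA carries an amino acid to the ribosome, and in mature sperm, which translate little, pieces of tRNAs are a large class of small RNA. Sperm pass such RNAs to the egg, and small RNA is gained and lost while sperm mature in the testis and epididymis. The entries are described by name, without their sequences.

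Libraries held 3306357 to 3853639 counts at 12 months and 1914389 to 3448801 at 16 months, higher at 12 months in 4 of 4 bulls. The miRNA entries took 2.45% ± 0.664 of the counts at 12 months and 3.44% ± 1.25 at 16 months (SD, n = 4), and the tRNAs took 1.68% ± 0.0627 and 2.14% ± 0.351. In 3 of 4 bulls each share was the lower at 12 months. An exact permutation test of the signs of the 4 differences, two-sided, gave p = 0.25 for each share (0.344 after Benjamini-Hochberg adjustment over 11 library measures), and with 4 pairs it cannot go below 0.125. A single Ensembl transcript took 36.9% ± 5.90 of the counts at 12 months and 23.5% ± 10.5 at 16 months, higher in 4 of 4 bulls (exact permutation test, p = 0.125, the smallest that 4 pairs allow). Without the 10 most abundant sequences the tRNA share was 8.15% ± 0.493 at 12 months and 7.63% ± 0.356 at 16 months, the opposite order, and the miRNA share was 11.9% ± 3.27 and 12.0% ± 3.01. Levels of single sequences are therefore given as TMM-normalized CPM (counts per 1e6 counts), a scale on which most sequences are assumed not to differ. Scaling by library totals instead shifted the median over all sequences from 0.00 to -0.44 on the log2 scale.

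The label of the samples was checked against marker miRNAs. The male germ cell list (bta-mir-34b, bta-mir-34c, bta-mir-449a, bta-mir-449b, bta-mir-449c, bta-mir-202 and bta-mir-191) had 7 of 7 hairpins measured and 0 well counted, with summed raw counts of 104 to 165 at 12 months and 85 to 224 at 16 months. For comparison, bta-mir-122, a liver miRNA, had 15 to 26 counts at 12 months and 14 to 28 at 16 months, and the 4 hairpins of the neuron list summed to 70 to 111 and 73 to 122. No defining germ cell marker was at 0, but the hairpin counts of these miRNAs were not far above those of tissues that semen should lack. In such bulk samples, fewer cells of a type and less RNA per cell cannot be told apart.

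Few sequences differed between the ages. Calls were made at a fitted fold change of at least 1.5 and an unadjusted p of at most 0.05, with edgeR's quasi-likelihood test and the bull as a block. Over all 4615 sequences 150 were called (3.25%), of which 101 were higher at 12 months (2.19%) and 49 lower (1.06%). With library totals the split was 9 higher and 801 lower, and DESeq2 called 49 (37 higher and 12 lower). At a Benjamini-Hochberg adjusted p under 0.05 there were 4 (0.0867%), all of them Ensembl transcripts, and 0 with DESeq2. Among the well counted hairpins 6 of 230 were called, 3 higher and 3 lower, and 9 had an unadjusted p up to 0.05. Among the well counted tRNAs 1 of 45 was called, and among the 8 mature entries 0, of which 0 reached an unadjusted p of 0.05. The shares called, 2.61% of the hairpins and 2.22% of the tRNAs, were near the background of all sequences. Without bull 3 the hairpins called were 15 (12 higher and 3 lower), and without the bull as a block 3, all lower. With library totals 51 hairpins and 3 tRNAs were called, all lower. After adjustment no hairpin, mature entry or tRNA passed 0.05 with edgeR's quasi-likelihood test or with DESeq2, and the smallest adjusted p of a well counted hairpin was 0.453 with the former.

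On the TMM scale the intervals were narrow enough to bound most of the differences. The fit shares its estimate of spread over sequences, so an interval can be narrower than the bulls of that sequence alone would give. SerGGA, for example, was bounded at -0.77 to 0.25, although the SD of its differences within the 4 bulls was 0.83 (log2 scale). Of the 230 well counted hairpins, 220 (95.7%) had a 95% interval of the fold change that lay wholly within 2-fold in either direction, and so did 44 of the 45 tRNAs. The median log2 fold change was -0.01 over the hairpins and -0.00 over the tRNAs, beside 0.00 over all sequences. With library totals each of these medians was -0.44, so the bounds hold for the TMM scale only. Hairpins numbered under 1000 and let-7, most of which have counterparts in other mammals, made up 97 of the 230, with 1 called, 95 bounded within 2-fold and a median log2 fold change of -0.02.

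**Figure D1:**
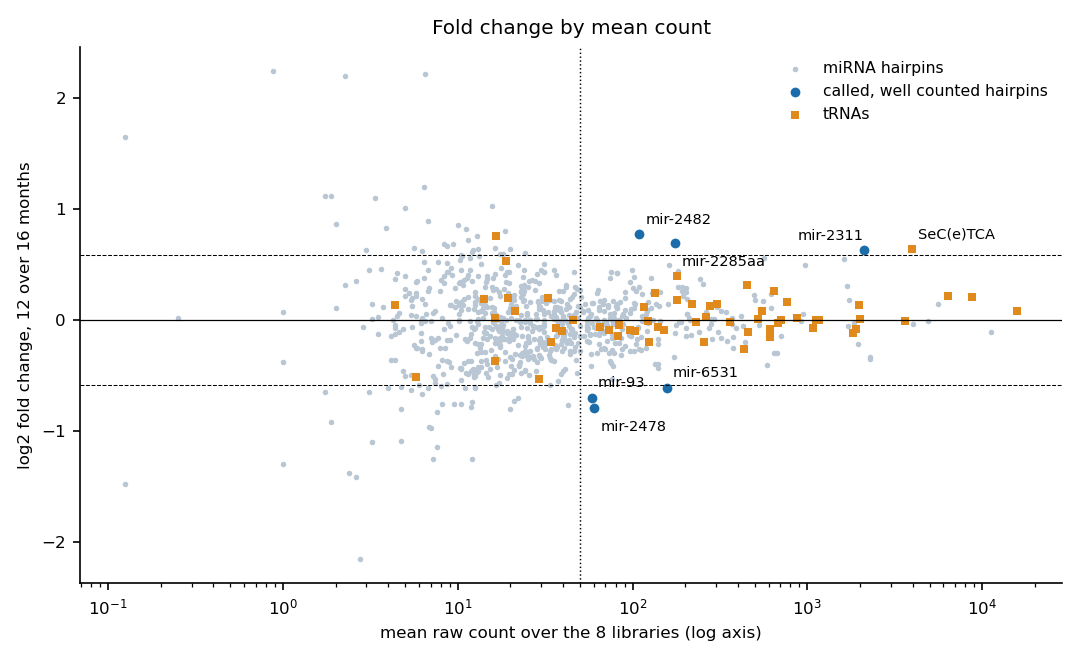
Log2 fold change (12 over 16 months) against the mean raw count over the 8 libraries (log axis) for 796 hairpins (grey points) and 60 tRNAs (orange squares). The dotted line marks a mean of 50 counts and the dashed lines a fold of 1.5. To the right of the dotted line 6 hairpins (blue, named) and the tRNA SeC(e)TCA were called, and the spread narrows as counts rise.

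A direction shared by all 4 bulls was seen in 21 of the 230 well counted hairpins (10 higher and 11 lower at 12 months) and in 494 of all 4615 sequences (10.7%). The 12 such hairpins with the smallest p are described next, except those the study itself names. Of these, 4 were called and 8 were not.

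The conserved hairpin among the called ones was bta-mir-93, a member of the mir-17 seed group, which is known to repress inhibitors of the cell cycle such as CDKN1A. In the RefSeq annotation (ARS-UCD2.0) it lies inside MCM7 with bta-mir-25 and bta-mir-106b. Its level at 12 months was 11.2, 10.6, 17.8 and 10.6 CPM in bulls 1 to 4, and at 16 months 15.1, 43.5, 19.0 and 11.9 CPM. It was lower at 12 months in each bull, but the age groups overlapped and bull 2 at 16 months stood far above the other libraries. The log2 fold change was -0.70 ± 0.26 (SE; unadjusted p = 0.00761, adjusted p = 0.650 by edgeR's quasi-likelihood test). Without bull 2 it was -0.22 and no longer called, and the call was also lost with DESeq2 (-0.68) and when well counted sequences were fitted alone (-0.70). Of its neighbours bta-mir-25 had a log2 fold change of 0.32 ± 0.25 (-0.12 if library totals were used) and bta-mir-106b of 0.27 ± 0.28, neither called, though bta-mir-25 was called higher without bull 3 (0.62).

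Hairpins without a well known role made up the rest of the calls. For bta-mir-2285aa, of the large ruminant family mir-2284/mir-2285, the levels were 87.3, 45.1, 47.1 and 93.8 CPM at 12 months and 41.7, 30.6, 23.5 and 83.4 CPM at 16 months. Every bull was higher at 12 months, although bull 4 at 16 months exceeded bulls 2 and 3 at 12 months. The log2 fold change was 0.69 ± 0.24 (adjusted p = 0.527, edgeR's quasi-likelihood test), and 0.54 without bull 1, where the call was lost. It was also lost with library totals (0.26) and without the bull as a block (0.61).

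One of the most abundant hairpins was called as well. bta-mir-2311 had 743, 360, 902 and 1131 CPM at 12 months and 562, 153, 537 and 1024 CPM at 16 months. Again each bull was higher at 12 months while the groups overlapped, with bull 2 low and bull 4 high at both ages. The log2 fold change was 0.63 ± 0.27 (adjusted p = 1.00 by edgeR's quasi-likelihood test), and 0.43 without bull 2, where the call was lost. It was also lost with library totals (0.19) and without the bull as a block (0.46).

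In the opposite direction, bta-mir-6531 had 44.8, 38.0, 39.7 and 31.5 CPM at 12 months and 85.8, 38.3, 55.5 and 63.3 CPM at 16 months. Bull 2 was level between the ages and the other bulls were lower at 12 months. The log2 fold change was -0.61 ± 0.24 (adjusted p = 0.825, edgeR's quasi-likelihood test). The call was lost without bull 1 (-0.52), without bull 4 (-0.46) and among hairpins alone (-0.58).

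Outside the rule for naming, since not all bulls shared a direction, 2 more hairpins were called, and they were singled out after their values were seen. bta-mir-2482 had 33.6, 47.4, 34.3 and 51.4 CPM at 12 months and 22.4, 27.8, 8.13 and 55.5 CPM at 16 months, with a log2 fold change of 0.77 ± 0.25. In 3 of 4 bulls the level at 12 months was the higher, and without bull 3, the lowest library, the value was 0.40 and not called. The call was also lost with library totals and without the bull as a block. bta-mir-2478 had 11.9, 7.73, 12.1 and 15.3 CPM at 12 months and 78.8, 9.64, 16.0 and 10.6 CPM at 16 months, with a log2 fold change of -0.80 ± 0.28. A single library, bull 1 at 16 months, carried this difference, and without bull 1 the log2 fold change was -0.09 and not called. The call was also lost with DESeq2 and when well counted sequences were fitted alone. Thus each of the 6 called hairpins lost its call when 1 bull was left out.

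The other 8 hairpins with a direction shared by all bulls were not called in the fit to all bulls with TMM. With library totals 4 of them were called lower, namely bta-mir-2286 (-0.98), bta-mir-10a (-0.86), bta-mir-185 (-0.83) and bta-mir-2375 (-0.83). A call was gained by bta-mir-2286 without bull 4 (-0.60), by bta-mir-584-7 without bull 1 (0.71) and among hairpins alone (0.59), and by bta-mir-3141 without bull 1 (0.63). Among them, bta-mir-2286 had 22.1, 16.4, 18.2 and 20.6 CPM at 12 months and 34.8, 26.4, 26.2 and 24.9 CPM at 16 months. All libraries at 12 months were below all libraries at 16 months. The fold was just short of the threshold (log2 fold change -0.54 ± 0.24, unadjusted p = 0.0255, adjusted p = 1.00 by edgeR's quasi-likelihood test) and stayed between -0.60 and -0.49 when any bull was left out.

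The same lack of overlap was seen in 3 of the 230 well counted hairpins and in 75 of all sequences (1.63%), the others being bta-mir-2375 (-0.39 ± 0.24) and bta-mir-2893 (0.29 ± 0.24). Values of bta-mir-2375, which lies inside DST, were 20.4, 21.6, 15.2 and 23.98 CPM at 12 months and 25.5, 24.5, 27.9 and 27.2 CPM at 16 months. These libraries differed by little in absolute terms, and bull 3 showed the widest gap.

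bta-mir-10a, which lies in HOXB3 and is known to target HOX transcripts, had 13.2, 20.6, 16.2 and 11.8 CPM at 12 months and 24.7, 22.3, 18.3 and 17.0 CPM at 16 months. It was lower at 12 months in each bull, most of all in bull 1, with a log2 fold change of -0.42 ± 0.24. bta-mir-185, inside TANGO2, had 38.7, 30.6, 26.6 and 49.5 CPM at 12 months and 46.4, 44.3, 35.8 and 64.0 CPM at 16 months. Here the bulls kept 1 order at both ages, from bull 4 down to bull 3, and the log2 fold change was -0.40 ± 0.24.

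Higher values at 12 months that were not called were those of bta-mir-584-7 (0.56 ± 0.25), bta-mir-3141 (0.55 ± 0.26), bta-mir-1777b (0.45 ± 0.24) and bta-mir-2436 (0.44 ± 0.24, and -0.00 if library totals were used). bta-mir-3141 had 1068, 270, 485 and 658 CPM at 12 months and 895, 208, 270 and 396 CPM at 16 months. Bull 1 was highest and bull 2 lowest at both ages, and the difference between these bulls was larger than that between the ages. bta-mir-584-7 had 207, 150, 229 and 269 CPM at 12 months and 203, 122, 143 and 115 CPM at 16 months. Bull 4 moved most and bull 1 hardly differed.

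**Figure D2:**
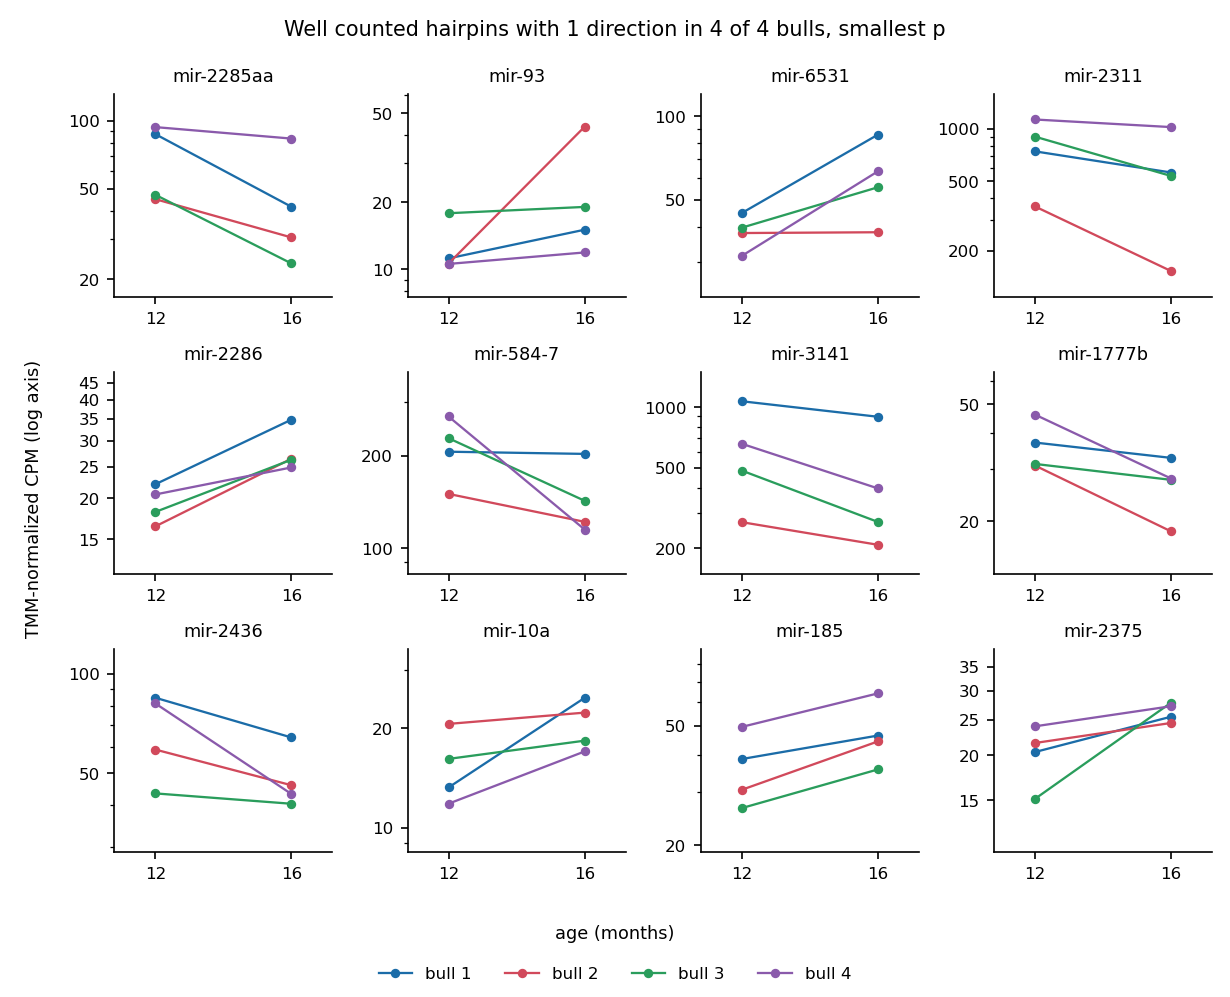
TMM-normalized CPM (log axis) of the 12 hairpins at 12 and 16 months, with a line for each of the 4 bulls. All lines of a panel slope the same way because the hairpins were chosen so, and in most panels the bulls lie further apart than the ends of a line.

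In the TMM fit the families of miRNAs with known roles showed little movement. With library totals the median log2 fold changes of the families ran from -0.67 (mir-15/mir-16) to -0.23 (mir-23/mir-24/mir-27), beside -0.44 over all sequences. The let-7 family, which promotes differentiation and represses LIN28 and HMGA2, had 13 entries classed as hairpins and 6 of them well counted, with 0 called in that fit. The 13 include bta-let-7a-3p, a mature arm by its name, which was not well counted. Their log2 fold changes ran from -0.15 (bta-let-7e) to 0.28 (bta-let-7c), and the most counted member, bta-let-7d, stood at 161 ± 44.8 CPM at 12 months and 143 ± 39.8 CPM at 16 months (SD, n = 4). In the mir-17-92 group and its paralogs 3 of 14 hairpins were well counted and bta-mir-93 was the 1 called. bta-mir-92b was level at 21.6 ± 3.00 and 22.1 ± 4.76 CPM.

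The group of mir-10, mir-99, mir-100 and mir-125 had 8 hairpins measured and 5 well counted, all 5 with log2 fold changes below 0, from -0.42 (bta-mir-10a) to -0.02 (bta-mir-125b-1), and 0 called. With library totals bta-mir-10a was called lower (-0.86). bta-mir-99b, the most counted of them, had 93.4 ± 13.8 CPM at 12 months and 112 ± 46.9 CPM at 16 months. The mir-200 family, which maintains the epithelial state by repressing ZEB1 and ZEB2, had 4 of 5 members well counted and 0 called, with bta-mir-429 at 101 ± 39.6 and 97.6 ± 44.6 CPM. In the imprinted DLK1-DIO3 domain, whose miRNAs are expressed from the maternal chromosome, 51 hairpins were measured and 7 were well counted. None of the 7 was called (bta-mir-411a, with a mean of 22.1 counts, was called lower), and their log2 fold changes ran from -0.13 (bta-mir-127) to 0.17 (bta-mir-494).

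The remaining families had few or no well counted members. The mir-15/mir-16, mir-23/mir-24/mir-27, mir-183/mir-96/mir-182 and mir-34/mir-449 groups had 1 each, the mir-26 group had 2, and the mir-30, mir-29 and mir-181 groups had 0, with 0 called among these well counted members in the TMM fit. Below the minimum, bta-mir-34b of the mir-34/mir-449 group was called higher, as given below. The mir-2284/mir-2285 family had 101 hairpins measured, of which 4 were called higher and 2 lower, beside 22 called of all 796 hairpins (2.76%), but 5 of these 6 calls fell on hairpins below a mean of 50 counts. The median log2 fold change of its 101 hairpins was 0.00.

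Markers of other cells that semen could hold were also counted. The red blood cell list summed to 63.5 to 261 CPM at 12 months and 61.9 to 400 CPM at 16 months, the white blood cell list to 124 to 204 and 118 to 291 CPM, and the epithelial list to 135 to 264 and 107 to 257 CPM. Most of the red blood cell sum was bta-mir-144 (52.5 of 63.5 CPM in bull 2 at 12 months), while bta-mir-451 had a mean of 11.4 raw counts. The striated muscle list spanned 342 to 3057 CPM at 12 months and 305 to 2034 CPM at 16 months, most of it bta-mir-133b (251 of 342 and 242 of 305 CPM in bull 2, the lowest), and the stromal list 599 to 731 and 427 to 793 CPM. In the stromal list bta-mir-145 had a mean of 1739 raw counts, beside a median of 55 over the members of that list. Lists held only hairpins with at least 1 count, so a marker without counts would not appear, and mir-203, an epithelial marker looked for, was not among them. The ranges of the ages overlapped in each list. Of these markers bta-mir-143, a smooth muscle miRNA with a mean of 20.9 counts, was called lower at 12 months (-0.73 ± 0.31), and none of the well counted ones was called. The part of these cells in the results was not tested. In the germ cell list bta-mir-34b, with a mean of 15.6 counts, was called higher (1.03 ± 0.36). It was the 1 called of the 7 hairpins of that list, whose median log2 fold change was -0.06.

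**Figure D3:**
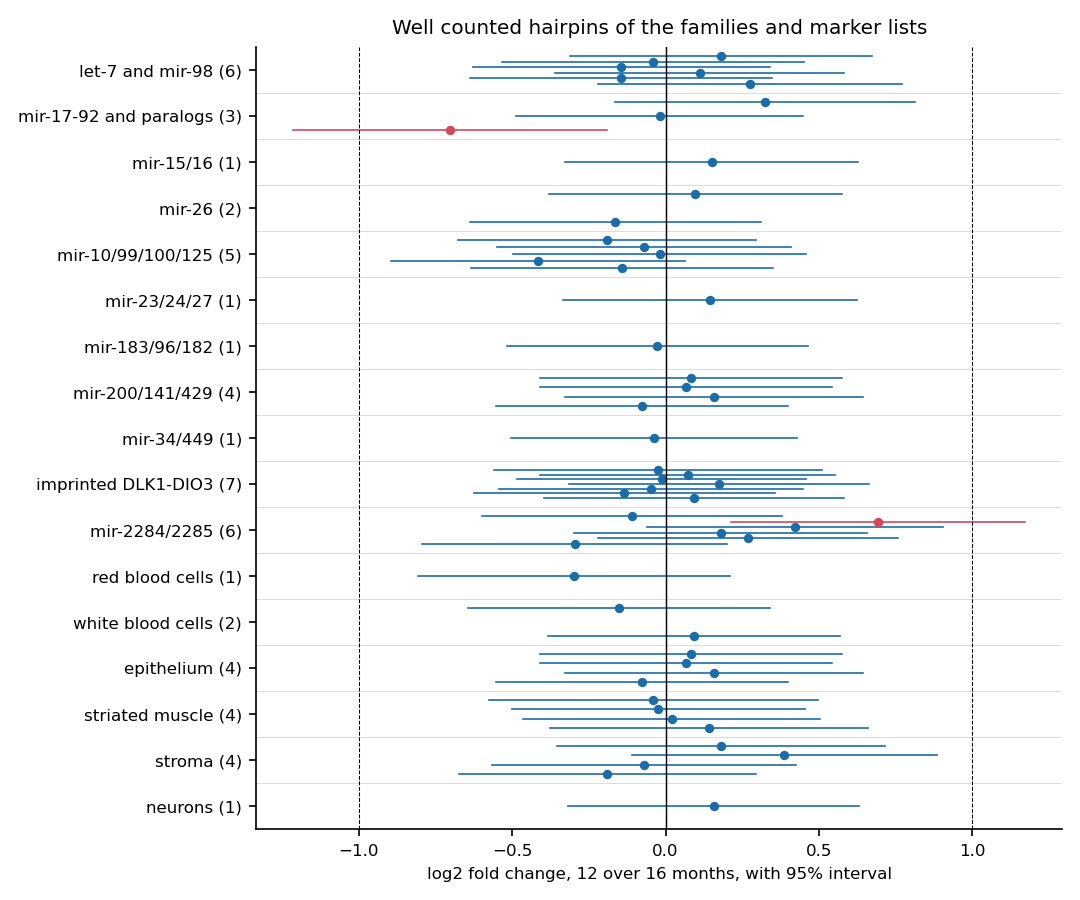
Log2 fold change (12 over 16 months) with 95% intervals for the well counted hairpins of each family and marker list, ordered by mean count within a list (number of hairpins in parentheses). Red marks the called hairpins, bta-mir-93 and bta-mir-2285aa. All other intervals include 0, and the dashed lines mark 2-fold.

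Of the 10 most abundant hairpins only bta-mir-2311 was called in the fit to all 4 bulls with TMM. bta-mir-342, an intronic miRNA of EVL and the most counted hairpin (mean 11171 raw counts), had 4101, 2140, 3286 and 2965 CPM at 12 months and 5018, 2134, 5872 and 1824 CPM at 16 months. Bull 2 was level, bulls 1 and 3 were lower and bull 4 was higher at 12 months, and the log2 fold change was -0.11 ± 0.29. bta-mir-1468 (0.14 ± 0.28, and -0.30 if library totals were used), bta-mir-2289 (-0.01 ± 0.27), bta-mir-133b (-0.04 ± 0.27), bta-mir-2334 (-0.34 ± 0.26), bta-mir-1225 (-0.36 ± 0.28), bta-mir-2392 (-0.22 ± 0.26), bta-mir-323 (-0.02 ± 0.27) and bta-mir-145 (0.18 ± 0.27, and -0.26 if library totals were used) were not called in that fit either. With library totals bta-mir-1225 was called at -0.81 and bta-mir-2334 at -0.78, and without bull 4 bta-mir-1225 was called at -0.71.

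Hairpins that lie next to each other in the genome, and may come from 1 primary transcript, were counted unequally. Of 796 hairpins 789 were matched by name to RefSeq loci, and 35 groups of neighbours within 10 kb held a well counted member. Raw counts were divided by the annotated hairpin length for this comparison. bta-mir-145 had 19.8 counts per base and its neighbour bta-mir-143 had 0.207, although both mark smooth muscle. bta-mir-144 had 7.64 counts per base and its neighbour bta-mir-451 had 0.160, both erythroid miRNAs. bta-mir-133b had 47.7 and bta-mir-206 0.234 counts per base. The ratio of the highest to the lowest member had a median of 8.74 over the 35 groups and was above 10 in 15 of them. In these 3 pairs bta-mir-143 was the 1 member called between the ages.

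The 8 well counted mature entries were level between the ages. The most counted, bta-miR-1307, had 244, 59.6, 163 and 287 CPM at 12 months and 230, 60.0, 235 and 206 CPM at 16 months. Bull 2 was low at both ages, and the log2 fold change was 0.01 ± 0.25. The other 7 had log2 fold changes from -0.17 to 0.28. Where a mature miRNA and its hairpin are listed as separate entries the values need not match: bta-miR-2436-3p stood at -0.05 ± 0.25 and its hairpin bta-mir-2436 at 0.44 ± 0.24.

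The tRNAs were dominated by glycine. Entries for glycine tRNAs took 42.3% ± 5.83 of all tRNA counts at 12 months and 41.9% ± 4.48 at 16 months (SD, n = 4), followed by leucine (12.7% ± 5.04 and 12.3% ± 5.69), glutamate and selenocysteine. GlyCCC alone had 5022 ± 697 CPM at 12 months and 4778 ± 881 CPM at 16 months. Its log2 fold change was 0.08 ± 0.28, with a 95% interval of -0.48 to 0.64 (-0.36 if library totals were used).

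The called tRNA among the well counted ones was SeC(e)TCA, the selenocysteine tRNA, which reads a stop codon as selenocysteine and is needed to make selenoproteins such as the sperm glutathione peroxidase GPX4. Its level was 1929, 1399, 915 and 1988 CPM at 12 months and 1343, 889, 599 and 1157 CPM at 16 months in bulls 1 to 4. Each bull was higher at 12 months, and the groups overlapped because bull 3 was low at both ages. The log2 fold change was 0.64 ± 0.27 (unadjusted p = 0.0176, adjusted p = 0.992 by edgeR's quasi-likelihood test, and 0.20 if library totals were used). It stayed between 0.62 and 0.66 when any bull was left out, but the call was lost without bull 2, without bull 4, without the bull as a block (0.64) and with library totals. Below the minimum, SerACT, a serine tRNA with a mean of 16.5 counts, was also called higher (0.76 ± 0.34).

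As a share of tRNA counts, a scale free of the other classes, selenocysteine took 10.6%, 6.86%, 5.06% and 10.4% at 12 months and 8.34%, 5.13%, 3.29% and 6.63% at 16 months. The difference was 2.38 percentage points ± 0.971 (SD over bulls), higher at 12 months in 4 of 4 bulls (exact permutation test, p = 0.125, the smallest possible; 0.575 after adjustment over 23 groups). The other selenocysteine entry, SeCTCA, was level, with 45.2 ± 3.57 CPM at 12 months and 48.2 ± 6.30 CPM at 16 months.

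On the same scale glutamate tRNAs took 8.26%, 8.27%, 8.75% and 8.73% at 12 months and 9.79%, 9.03%, 9.62% and 9.27% at 16 months. All libraries at 12 months were below all at 16 months, with a mean difference of -0.922 percentage points ± 0.429 (exact permutation test, p = 0.125, again the smallest possible). In CPM, however, GluTTC was level, at 1123 ± 43.1 and 1134 ± 60.8, and GluCTC had a log2 fold change of -0.11 ± 0.26. Cysteine, lysine and tyrosine shares were likewise lower at 12 months in 4 of 4 bulls, by 0.507, 0.241 and 0.135 percentage points. In CPM the log2 fold changes of their entries ran from -0.11 to -0.08, from -0.00 to 0.02 and from -0.20 to -0.08. Of the 23 groups 5 had a direction shared by all bulls, 1 of them, selenocysteine, higher at 12 months. These shares are not independent, since a higher share of 1 group lowers those of the others.

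Among the other 44 well counted tRNAs, 4 had a direction shared by all bulls in CPM. LeuTAG had 57.8, 90.5, 54.2 and 51.7 CPM at 12 months and 41.3, 67.2, 42.3 and 41.9 CPM at 16 months. Bull 2 was highest at both ages, and the log2 fold change was 0.39 ± 0.24 (-0.05 if library totals were used). GlyTCC (0.20 ± 0.28, and -0.24 if library totals were used), IleTAT (-0.09 ± 0.24) and CysGCA (-0.08 ± 0.26) differed by less.

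**Figure D4:**
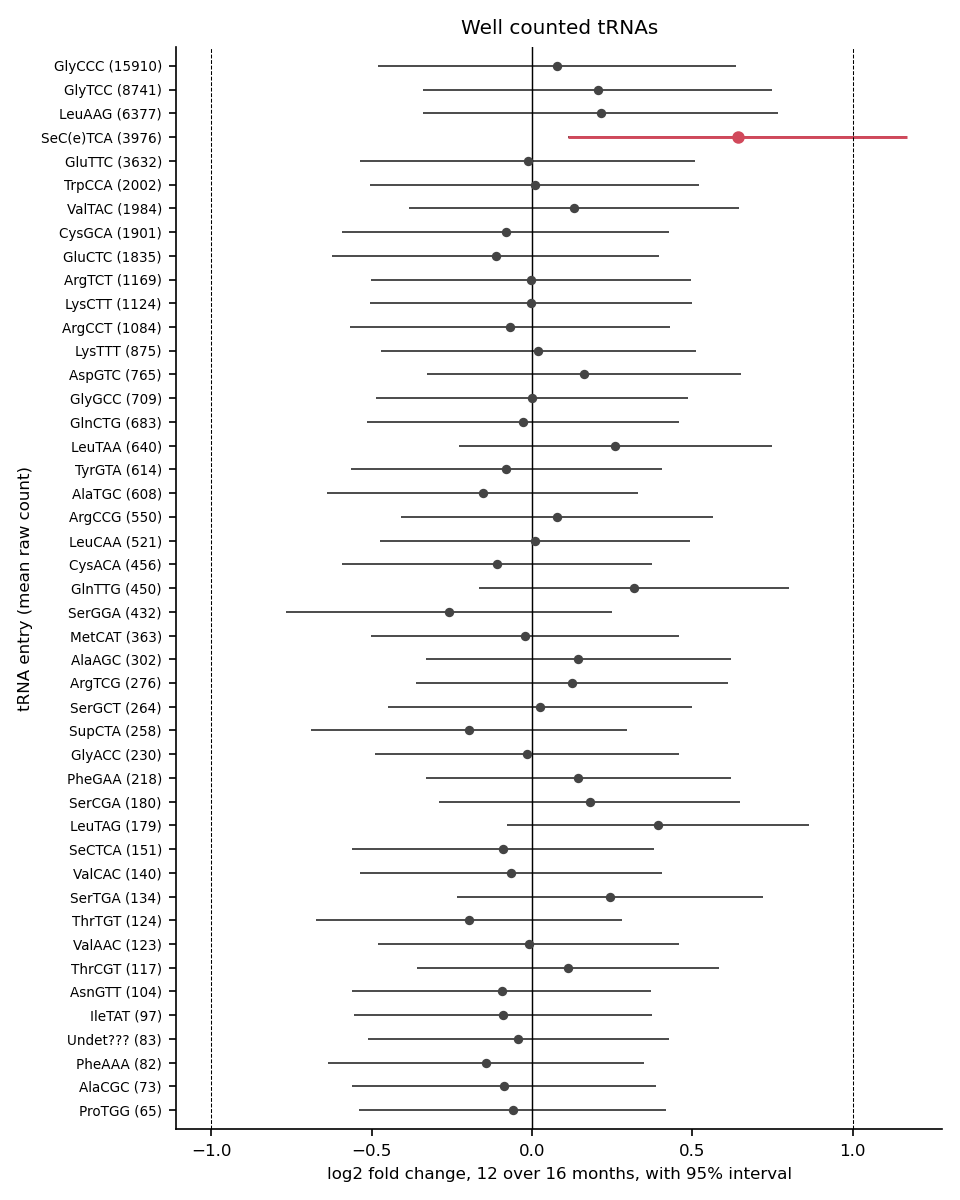
Log2 fold change (12 over 16 months) with 95% intervals for the 45 well counted tRNAs, from the most counted at the top to the least (mean raw counts in parentheses). SeC(e)TCA (red) is the 1 called tRNA, the other intervals include 0, and 44 lie wholly between the dashed lines at 2-fold.

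The bulls differed more than the ages. Tested in the same fit, 79 of the 230 well counted hairpins (34.3%) and 5 of the 45 tRNAs (11.1%) passed an adjusted p of 0.05 for differences among bulls (edgeR's quasi-likelihood test, Benjamini-Hochberg), beside 368 of all sequences (7.97%) and 284 of the 1477 well counted ones (19.2%), although the 368 became 181 with library totals and 576 with all 12 libraries. The range of the bull means exceeded the difference of the age means in 226 of the 230 hairpins, with medians of 0.904 and 0.142 on the log2 scale, and in all 45 tRNAs, with medians of 0.473 and 0.0914. A range over 4 bulls is wider by construction than a difference of 2 means, so these medians are a description.

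The sequences shown next were picked after their values were seen. The muscle miRNA bta-mir-133b had 1075, 251, 925 and 2968 CPM at 12 months and 1275, 242, 1366 and 1961 CPM at 16 months. Bull 2 was lowest and bull 4 highest at both ages (adjusted p among bulls = 4.46e-09, edgeR's quasi-likelihood test). bta-mir-144 had 246, 52.5, 153 and 221 CPM at 12 months and 289, 52.0, 380 and 174 CPM at 16 months, again lowest in bull 2. In bta-mir-2406 the order was another one, with 32.3 and 57.8 CPM in bull 3 and 9.85 to 22.02 CPM in the other bulls.

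The tRNAs SerGGA, LeuAAG, LeuTAA, ThrTGT and PheAAA were the 5 that differed among bulls. LeuAAG had 1167, 2291, 1306 and 3410 CPM at 12 months and 629, 1619, 2002 and 3239 CPM at 16 months, with bull 4 highest and bull 1 lowest at both ages (adjusted p among bulls = 0.00206, edgeR's quasi-likelihood test). LeuTAA was higher in bulls 2 and 3 (230 to 325 CPM) than in bulls 1 and 4 (108 to 149 CPM). SerGGA ranged from 56.5 CPM in bull 4 to 236 CPM in bull 3 at 16 months.

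**Figure D5:**
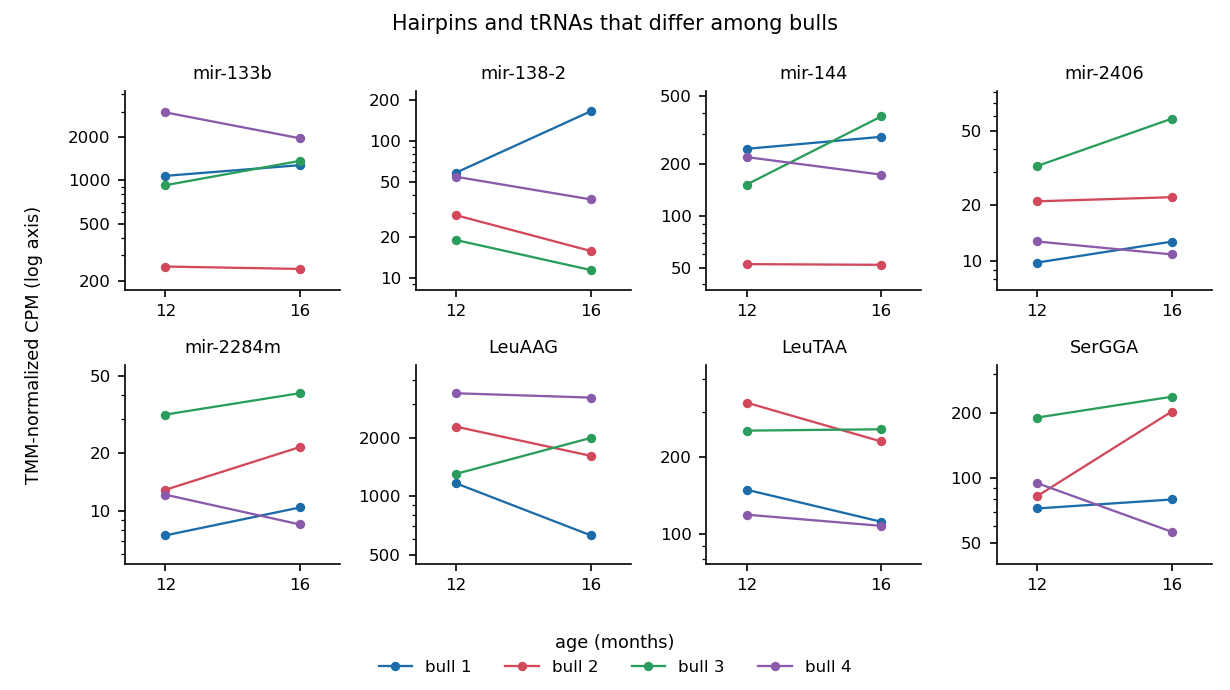
TMM-normalized CPM (log axis) at 12 and 16 months of 5 hairpins and 3 tRNAs that differ among bulls, with a line for each bull. The lines of bta-mir-133b run from 242 to 2968 CPM, and the line of bull 2 stays at the bottom of it and of bta-mir-144.

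The Ensembl transcripts held 95.9% ± 0.688 of the counts at 12 months and 94.4% ± 1.54 at 16 months (SD, n = 4). The files do not pair their identifiers with gene names, so they are described by number only. Of the 1194 well counted ones 36 were called (3.02%, beside 3.25% of all sequences), 26 higher and 10 lower at 12 months, and 1135 were bounded within 2-fold. With library totals the split was 4 higher and 289 lower. The number called was 69 without bull 3, 64 without bull 4 and 21 without the bull as a block. Of the 36, 6 stayed called when any 1 bull was left out, all of them higher at 12 months. The most abundant sequence of all was 1 of these, at 1167389 to 1580252 raw counts at 12 months and 356032 to 1013036 at 16 months, with no overlap of the groups and a log2 fold change of 1.20 ± 0.37 (adjusted p = 0.360, edgeR's quasi-likelihood test). It lost its call with library totals (0.76) and without the bull as a block (1.05), and of the 6 transcripts ENSBTAT00000059605.1 and 1 other stayed called under each setting, the other not being the same.

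Of the 4 transcripts that passed the adjusted p, 3 had uneven libraries. ENSBTAT00000059605.1 had 256, 90.2, 41.1 and 48.0 CPM at 12 months and 34.8, 25.9, 37.4 and 40.5 CPM at 16 months. The groups did not overlap, but bulls 3 and 4 differed little between the ages and bull 1 at 12 months was far above the rest. The log2 fold change was 1.26 ± 0.28 (adjusted p = 0.0210, edgeR's quasi-likelihood test), and 0.70 without bull 1. ENSBTAT00000059091.1 (1.58 ± 0.36) rested on the same library, with 303 CPM in bull 1 at 12 months and 5.51 to 39.2 CPM in the others, and bull 4 had the lower value at 12 months (14.6 against 39.2 CPM). It was 0.50 and not called without bull 1, and with DESeq2 it was not called either, though its log2 fold change was 1.61 there. ENSBTAT00000064017.1 (-2.66 ± 0.51) had 68.8 CPM in bull 1 at 16 months and 0.623 to 2.04 CPM in the other libraries, and without bull 1 the log2 fold change was 0.33, in the opposite direction. With DESeq2 it was -0.88 and not called. The fourth transcript, with a mean of 23.0 counts, had its higher value at 12 months in each bull (1.401 ± 0.31, and 1.29 to 1.48 when a bull was left out).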

How the data were processed

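The table the authors deposited holds, for each library (TruSeq small RNA kit), raw read counts over a purpose-made list of cattle small and non-coding RNAs rather than over the genome. The submitters' processing notes name Trimmomatic 0.36, Bowtie 1.2.2 and DESeq. Mismatches, the treatment of reads that match several entries and the genome build are not given in the sources used here, so near-identical entries (copies of 1 miRNA, a hairpin and its mature form, related tRNAs) may share or split reads. The study's methods describe a wash that lyses somatic cells, which the protocol in the labels does not mention. The deposited normalized table (counts divided by size factors) and tables of the authors' own fold changes and p-values were not used.

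Bulls were paired by the animal given in the labels. Deviations from the age means correlated at 0.303 to 0.679 within the 4 bulls and at -0.521 to 0.134 over the 12 other pairs of libraries (1477 sequences). Such deviations cancel out over the 4 bulls of an age, so the low values of the other pairs are in part set by the centring. Counts of the 4615 sequences were fitted with edgeR 4.0.16 (limma 3.58.1, R 4.3.3; TMM, quasi-likelihood test, bull as a block) and adjusted over all of them by Benjamini-Hochberg. Shares were compared by exact permutation of signs (Python 3.11.15, scipy 1.17.1, numpy 2.4.6, pandas 2.3.3). Hairpin loci and lengths came by name from the RefSeq annotation of ARS-UCD2.0, for 789 of 796 hairpins, whose positions gave host genes and neighbours. No coordinates are printed, since the build behind the files is not stated.

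The alternatives were DESeq2 1.42.0, other scalings, filters and minimum counts, all 12 libraries, no replicate block, and each bull left out. Those for differences among bulls were chosen after seeing the data. Named in the text are, first, sequences past the adjusted threshold. Next come the 12 hairpins and up to 6 tRNAs with 1 direction in all bulls and the smallest p. Hairpins that the study names were left out of the 12. The tRNAs were not screened in this way, and the study reports a tRNA-derived RNA higher at 12 months. Also named are the most counted hairpins and tRNAs, and the well counted members of families and marker lists. The members and lists were chosen with earlier results of these data known. Depth was 1914389 to 3853639 counts per library. Without molecular identifiers reads are not independent molecules. No 2 libraries were identical, and each bull and age has 1 library. With the bull as a block, p-values for age are set against how the age difference varied over 4 bulls. The fit moderates that residual spread over all sequences. Tests among bulls use the same residual, with the libraries of a bull at both ages as its only replicates.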

Additional observations from a re-analysis of the deposited data

Results flagged for a closer look

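The 114 sequences named in the text (in TMM-normalized CPM) and 4 library measures were examined at each age, which gave 236 groups of 4 libraries. In 16 groups 1 library stood apart from the others by more than Dixon's 95% critical value. Chance gives this in about 1 of 20 groups that are independent and unselected. Some of these sequences were picked after their values were seen, and both ages come from the same bulls, so 1 of 20 is no fair reference here. Bull 1 stood apart at 16 months in ENSBTAT00000064017.1 (68.8 CPM, the others 0.697 to 1.101), bta-mir-2478 (78.8, the others 9.64 to 16.0), bta-mir-138-2 (165, the others 11.4 to 37.5), bta-mir-2286 (34.8, the others 24.9 to 26.4) and IleTAT (25.5, the others 31.9 to 33.0), and at 12 months in ENSBTAT00000059091.1 (303, the others 14.6 to 30.3). Bull 2 stood apart in LeuTAG at both ages, with 90.5 CPM against 51.7 to 57.8 at 12 months and 67.2 CPM against 41.3 to 42.3 at 16 months. It also did so at 12 months in bta-mir-143 (7.41, the others 3.74 to 4.05) and bta-mir-191 (14.2, the others 9.17 to 9.97), and at 16 months in bta-miR-1307 (60.0, the others 206 to 235). Bull 3 stood apart at 12 months in bta-mir-93 (17.8, the others 10.6 to 11.2) and bta-mir-221 (27.6, the others 11.3 to 12.1), and at 16 months in bta-mir-125a (21.8, the others 13.5 to 14.3) and bta-mir-665 (117, the others 62.0 to 71.3). Bull 4 stood apart in bta-mir-494 at 12 months (37.7, the others 18.9 to 21.4).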

How the results depend on the processing

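The count of sequences called by fold and p, 150, was 49 with DESeq2 (37 higher and 12 lower), 810 with library totals and 37 of 1477 when well counted sequences were fitted alone. The 4 calls at the adjusted p became 0 with DESeq2, all 12 libraries, filterByExpr, library totals, no replicate block or well counted sequences alone, and 1 to 15 when a bull was left out. Without the replicate block, that is without the pairing of bulls, 135 sequences were called by fold and p (84 higher and 51 lower), with 3 hairpins, 0 tRNAs and 21 Ensembl transcripts among the well counted. With library totals these were 51, 3 and 293. When a bull was left out the well counted hairpins called ranged from 6 to 15, tRNAs from 0 to 1 and Ensembl transcripts from 38 to 69 (without bull 3 they were 15, 1 and 69, and without bull 4 they were 9, 0 and 64), and at a minimum mean of 100 counts 20 Ensembl transcripts were called. The difference in tRNA share, -0.465 percentage points, became 0.518 without the 10 most abundant sequences. With library totals the log2 fold change changed sign in 29 of the 83 sequences covered by the naming rule, 0 of them called, among them bta-mir-2436 (-3.8e-05), LeuTAG (-0.0473), GlyTCC (-0.24), LeuAAG (-0.22) and ValTAC (-0.31). ENSBTAT00000064017.1 ranged from -3.56 to 0.33 when a bull was left out. Where the setting itself (fewer sequences or bulls, another scale) does not show the cause, the cause was not tested. Of 325 values for the 26 named sequences that passed the adjusted threshold or shared 1 direction in all bulls, 285 kept their direction and side of the threshold, 28 lost the call, 8 gained it and 4 changed sign. The 368 sequences that differ among bulls were 181 with library totals and 576 with all 12 libraries.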
